A study of Homo sapiens with 18 samples.

Results

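The untreated A375 cells of a study of the compound IMD-0354 were examined at 24 h and 48 h. They were chosen by their labels, as the samples marked untreated at either time, and made up 6 of the 18 samples, 3 at each time. A375 is a long-established line of human melanoma cells in which the kinase BRAF is mutated and always active. Cells of all groups were grown in high-glucose medium with fetal bovine serum, seeded below confluence in 6-well plates, left overnight and then kept for 24 h or 48 h. The remaining samples, 3 per group, received 0.32, 0.63 or 1.25 µM IMD-0354 for 24 h, or 0.63 µM for 48 h. No vehicle is named for untreated cells, nor is it said whether replicate libraries stem from different dishes. The p-values therefore reflect only how far these libraries differ, a spread that may be technical, and everything here describes a single cell line. RNA was read from the 3' end of transcripts and is given as TPM, a level that is divided by transcript length and scaled to the same total in each library. TPM holds no read counts, so the depth of the libraries is unknown. In bulk RNA, fewer cells with a transcript and less of it per cell cannot be told apart.

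Melanoma cells occupy a range of states. At one end MITF and SOX10, transcription factors of the melanocyte lineage, run the genes of pigment synthesis, and at the other end cells have lost pigment genes and express the receptor kinase AXL and mesenchymal genes. In cells with mutant BRAF, the kinase ERK is constantly active and keeps up its targets, among them the phosphatase gene DUSP6 and the cyclin gene CCND1. During a further day in a dish cells become denser and use up nutrients, and genes of growth, contact, nutrient supply and oxygen supply are those commonly followed over such a period.

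The 24 h group was the less uniform. Between libraries of 48 h, Pearson's r of log2(TPM + 1) across the tested genes ran from 0.943 to 0.956. Between libraries of 24 h it ran from 0.897 to 0.942, and replicate 2 had the lowest mean correlation with its group of all 18 libraries (0.907), followed by replicate 3 (0.920). The 24 h replicate 1 was closer to 48 h replicate 1 (r = 0.955) than to either library of its own group (0.916 and 0.942). In 24 h replicate 2 the glycolytic gene GAPDH stood at 25.5 TPM against 352 to 642 TPM in the other 5 libraries, while PTMA, a small nuclear protein gene, stood at 6946 TPM against 2061 to 2535 TPM. Values without this library are therefore given beside many of the results. A result given without such a value may also depend on this library. Libraries of 24 h had 15198 to 16408 genes above 0 and those of 48 h had 15952 to 17029.

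The deviation of 24 h replicate 2 ran with the base composition of transcripts. The 5810 genes with a mean of at least 10 TPM and a known transcript were sorted by the GC content of their longest transcript into 5 groups of 1162. In the group of lowest GC content (30.2% to 40.3%), 24 h replicate 2 lay above the mean of the other 5 libraries by a median of 0.43 on the log2 scale. In the group of highest GC content (56.2% to 73.5%) it was at a median of -0.48. The other 5 libraries went from between -0.15 and -0.06 in the lowest group to between -0.04 and 0.20 in the highest. The mean each of them is compared with includes 24 h replicate 2, so part of their opposite trend is built in. The median change from 24 h to 48 h went from -0.17 in the lowest group to 0.08 in the highest with all 6 libraries, and from -0.01 to -0.10 without 24 h replicate 2. The part of GC content in the results for single genes was not tested.

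**Figure D1:**
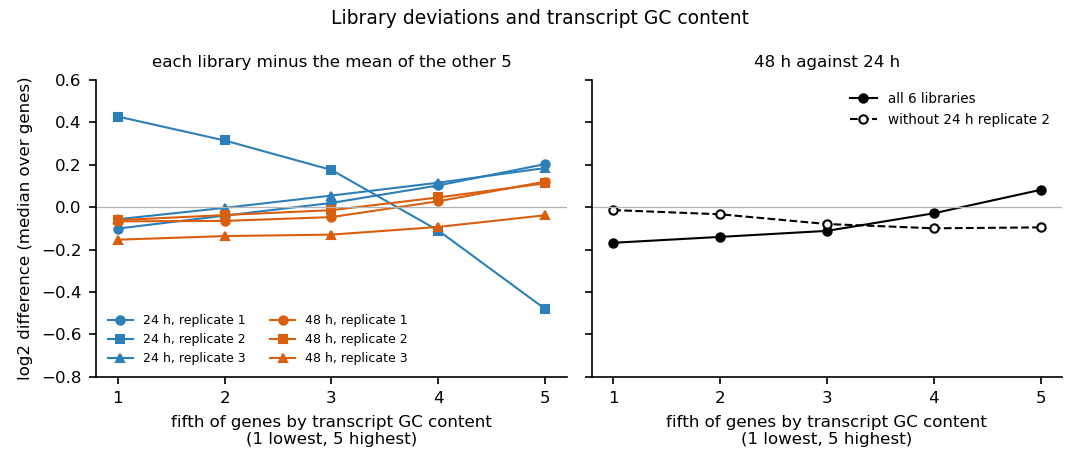
Genes of at least 10 TPM are split into 5 equal groups by transcript GC content (horizontal axis), and the vertical axis is the median log2 difference over the 1162 genes of each group. On the left each line is a library against the mean of the other 5. There 24 h replicate 2 goes from 0.43 to -0.48, while the others, whose reference includes it, stay between -0.15 and 0.20. On the right is the change from 24 h to 48 h with all 6 libraries (filled) and without 24 h replicate 2 (open).

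The transcriptome of untreated A375 cells held 10304 genes with at least 1 TPM in all 3 libraries of 24 h and 10765 in all 3 of 48 h, and 9776 of these were shared. Of the shared genes, 8921 were protein-coding. Averaged over the 6 libraries, 5830 genes reached 10 TPM, 1105 reached 100 TPM and 136 reached 1000 TPM. The 100 most abundant genes of each library held 51.3% ± 1.84 of its TPM at 24 h and 55.0% ± 1.23 at 48 h (SD, n = 3).

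The highest single values belonged to 4 near-identical, unnamed long non-coding genes on the short arm of chromosome 21, an arm that carries ribosomal RNA gene repeats. They lie at chr21:8210384-8211306, chr21:8254592-8255514, chr21:8393419-8394341 and chr21:8437629-8438551, all on the minus strand in GENCODE 29 (GRCh38), and 3 of them had identical values in every untreated library. Reads cannot be assigned among such copies, so they are best read as a sum. The 4 together held 20.2%, 14.4% and 19.7% of TPM at 24 h and 22.6%, 23.1% and 24.6% at 48 h. The ranges did not overlap, and the difference of 5.37 percentage points had an exact two-sided permutation p of 0.1, the smallest that 3 against 3 can give (0.28 after Benjamini-Hochberg adjustment over 14 classes of share). Without 24 h replicate 2 the difference was 3.51. TPM has a fixed total, so the shares of the classes depend on each other. Protein-coding genes held 71.2%, 76.8% and 72.3% at 24 h and 68.8%, 68.3% and 67.4% at 48 h (exact p = 0.1, adjusted 0.28).

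Ribosomal proteins, the structural parts of the ribosome, took a share of like size. The 79 genes of this class held 22.7% ± 0.957 of TPM at 24 h and 22.2% ± 0.804 at 48 h (exact p = 0.5). The 13 protein-coding transcripts of mitochondrial DNA held 4.54%, 3.09% and 2.30% at 24 h and 3.15%, 2.93% and 2.36% at 48 h (exact p = 0.7), so that the spread within 24 h was wider than the difference between the times. The 2 mitochondrial ribosomal RNAs held 1.49% ± 0.496 and 1.80% ± 0.200 (exact p = 0.5). Processed pseudogenes held 1.59% ± 0.145 and 1.55% ± 0.0933 (exact p = 0.6). One of them, RPS23P8 (4609 to 6778 TPM), is a copy of a ribosomal protein gene, and its reads cannot be told apart from those of the parent where the sequences are the same.

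**Figure D2:**
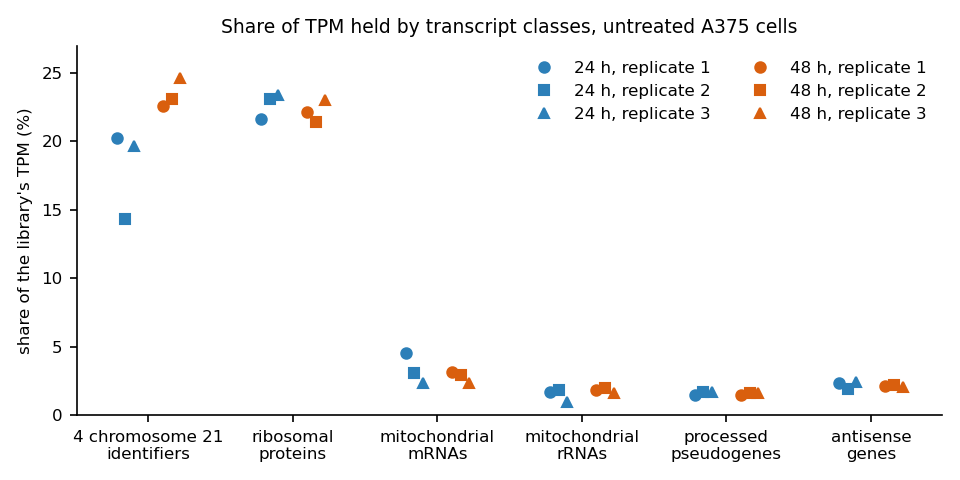
Share of each library's TPM (vertical axis, percent) held by 6 classes of transcripts (horizontal axis), with 24 h in blue, 48 h in orange and a symbol for each replicate. The 4 chromosome 21 identifiers run from 14.4% to 24.6% with 48 h above 24 h, whereas for ribosomal proteins the times overlap between 21.4% and 23.4%.

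Among genes with a symbol, the mitochondrial ribosomal RNA MT-RNR2 was the most abundant (7024 to 15000 TPM). It was followed by the ribosomal protein genes RPL41 (7282 to 12483 TPM), RPS6 (8535 to 12362 TPM), RPLP1 (7601 to 10175 TPM) and RPL26 (5388 to 13617 TPM). The place of RPL26 rests on 24 h replicate 2, and in the other 5 libraries it had 5388 to 6870 TPM against 6535 to 7096 TPM for RPS28. Next came RPS28, MT-ND3, RPS29, MT2A and MT-ATP8, and the 20 highest also included RPL37A, RPS24, RPS23P8, TUBA1B-AS1, RPS21, EEF1A1, MT-ND2, RPS27A and RPL32. TUBA1B-AS1 is antisense to the tubulin gene TUBA1B, and whether the counting used strand is not stated, so that its 2856 to 6424 TPM cannot be told apart from TUBA1B, which was listed at 0 to 8.53 TPM. Outside ribosomal proteins and mitochondrial DNA the 10 highest protein-coding genes included genes of translation, metal and iron binding, chaperoning and the cytoskeleton. MT2A, a metal-binding metallothionein, had 6114 ± 1438 TPM at 24 h and 5527 ± 299 at 48 h (SD, n = 3). The translation elongation factors EEF1A1 (4757 ± 846 and 4491 ± 1223) and EEF2 (3094 ± 273 and 3413 ± 303) followed. Nucleophosmin, NPM1 (3659 ± 445 and 2588 ± 192), the ferritin heavy chain FTH1 (2643 ± 349 and 2752 ± 302), the calcium-binding S100A6 (2336 ± 941 and 2897 ± 702), RACK1 (2463 ± 138 and 2439 ± 131) and the actin-binding TMSB10 (2495 ± 234 and 2401 ± 325) ranked below these. PTMA and the chaperone HSP90AA1 completed the 10, and both stood far higher in 24 h replicate 2 than elsewhere. Among the other metallothioneins MT1X had 11.2 to 33.6 TPM. Of the 12 genes on this list, which also held SLC30A1 and MTF1, not metallothioneins, 7 were listed at 0 in all 6 libraries. Genes such as EEF1A1, PTMA and NPM1 have many near-identical pseudogene copies, and how the counting divided reads among them is uncertain.

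The lineage factors were present while most pigment genes were at or near 0. SOX10 had 17.1, 8.29 and 34.7 TPM at 24 h and 13.6, 14.9 and 18.6 TPM at 48 h. MITF had 16.6, 13.5 and 16.8 TPM at 24 h and 16.5, 16.1 and 15.0 TPM at 48 h, so the times overlapped for both factors (MITF log2 fold change 0.03, 95% interval -0.61 to 0.66; SOX10 -0.13, -0.85 to 0.58). Without 24 h replicate 2, the library with the least SOX10, the changes were -0.07 for MITF and -0.62 for SOX10. Most pigment genes stood far lower. TYR and TYRP1, the melanin-making enzymes, and OCA2 and SLC45A2, melanosome transporters, were listed at 0 in every library. DCT was listed at 0 in 5 libraries and at 1.46 TPM in 24 h replicate 3, PMEL did not pass 0.70 TPM, and MLANA was at 0 in the 3 libraries of 24 h and at 0.22, 0.13 and 1.17 TPM at 48 h. PAX3, which acts upstream of MITF, had 3.83, 3.33 and 4.57 TPM at 24 h and 4.88, 8.14 and 5.87 at 48 h, without overlap but not called (log2 fold change 0.55 ± 0.37 SE, adjusted p = 0.745 in limma). Other genes of the pigment cell list were above 0. SLC24A5 had 5.58, 7.42 and 0 TPM at 24 h and 0, 3.78 and 0 TPM at 48 h. GPNMB had 3.73 to 6.0 TPM over all libraries, RAB27A 0.59 to 3.23 TPM and RAB38 0.68 to 5.21 TPM. Of 24 genes on this list, 7 reached 1 TPM in every library of 24 h and 6 at 48 h. Among them was the cell cycle kinase gene CDK2 (67.45 to 84.29 TPM).

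Genes of the dedifferentiated state were plentiful beside these. VIM, the mesenchymal filament protein, had 1038 to 1319 TPM, the adhesion receptor CD44 had 191 to 234 TPM and the AP-1 factor FOSL1 had 96.7 to 166 TPM over the 6 libraries. AXL had 75.5, 37.1 and 80.4 TPM at 24 h and 78.5, 80.8 and 88.7 TPM at 48 h. Its lowest value is again 24 h replicate 2, and its log2 fold change of 0.43 (95% interval -0.03 to 0.90) was 0.08 without that library. NGFR, the nerve growth factor receptor of neural crest cells, had 7.75, 6.62 and 10.3 TPM at 24 h and 4.91, 5.04 and 4.11 TPM at 48 h. Every 48 h library was below every 24 h library, and the change was -0.68 ± 0.20 (SE) with an adjusted p of 0.514, hence not called. The factor SOX9 had 9.99 to 13.6 TPM at 24 h and 14.1 to 15.1 TPM at 48 h (0.35 ± 0.20, adjusted p = 0.692). Of 24 such genes, 19 reached 1 TPM in all libraries of 24 h and 18 in all of 48 h.

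Markers of other cells were at or near 0. The 10 leukocyte markers summed to at most 0.69 TPM, the 6 endothelial markers to at most 0.20 TPM and the 9 fibroblast markers to between 1.90 and 5.21 TPM, of which POSTN gave 0.78 to 5.0 TPM. PTPRC, CD3E, VWF, CDH5, COL3A1 and THY1 were listed at 0 throughout. Of 10 keratinocyte markers only KRT10 (27.6 to 44.9 TPM) and SFN (9.17 to 17.8 TPM) passed 2 TPM, while KRT1, TP63 and IVL were at 0. The simple-epithelial keratin KRT18 had 257 to 418 TPM and its partner KRT8 15.97 to 53.3 TPM, whereas the epithelial cadherin CDH1 did not pass 0.30 TPM and N-cadherin, CDH2, had 33.5 to 56.7 TPM.

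**Figure D3:**
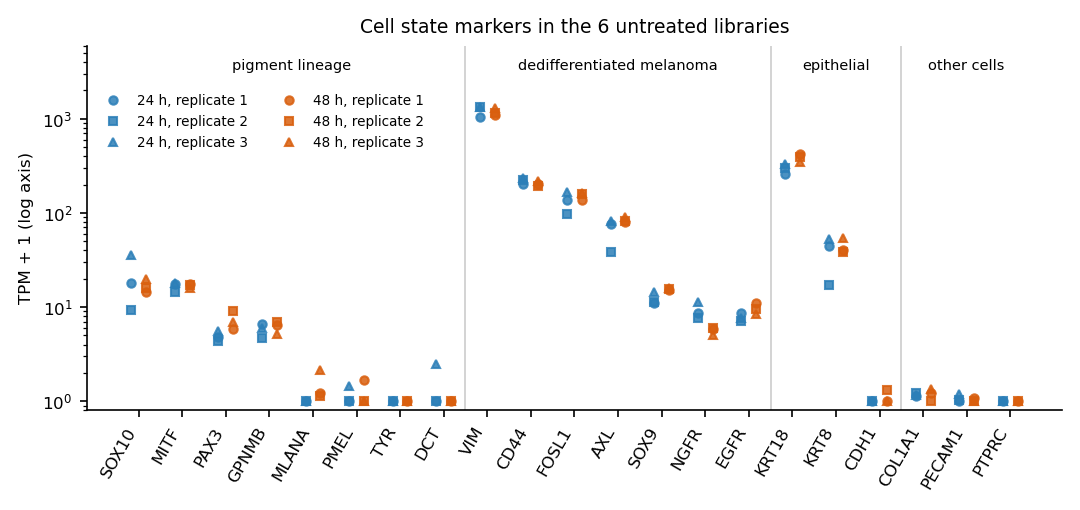
TPM + 1 on a log axis (vertical) for 21 marker genes (horizontal) in the 6 untreated libraries, 24 h in blue and 48 h in orange, with a symbol for each replicate. SOX10 and MITF lie between 8.29 and 34.7 TPM while TYR lies at 0, and VIM, CD44, FOSL1 and AXL lie between 37.1 and 1319 TPM.

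The ERK pathway was read out by DUSP6, at 27.0, 30.7 and 29.3 TPM at 24 h and 23.1, 29.7 and 26.0 TPM at 48 h. CCND1 had 68.3 to 100.2 TPM at 24 h and 69.2 to 117 TPM at 48 h, and BRAF itself had 3.38 to 5.04 and 2.38 to 4.17 TPM. The times overlapped for all 3, and the 95% interval for DUSP6 ran from -0.55 to 0.27. All 20 genes of ERK output were tested, with a median change of 0.02 against -0.03 for all genes. The median was -0.10 without 24 h replicate 2 and -0.14 without 48 h replicate 3. MYC was low, at 0.84 to 2.83 TPM at 24 h and 1.11 to 1.97 at 48 h.

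The NF-κB pathway, which contains the kinase IKKβ that IMD-0354 is described as inhibiting, was present at moderate levels. IKBKB, the IKKβ gene, had 7.42, 5.14 and 16.7 TPM at 24 h and 7.76, 8.93 and 3.97 at 48 h. The factor genes RELA (14.54 to 22.0 TPM) and NFKB1 (8.72 to 13.2 TPM) and the inhibitor NFKBIA (15.9 to 30.9 TPM) also overlapped between the times. The inducible chemokine CXCL1 had 34.1, 36.3 and 31.0 TPM at 24 h and 24.2, 22.3 and 19.8 TPM at 48 h, without overlap (-0.59 ± 0.21 SE, adjusted p = 0.582, not called), while IL6 and CSF2 were listed at 0. TNFAIP2 had 23.3 to 93.0 TPM at 24 h and 35.8 to 89.0 at 48 h. Of 21 components, the median change was 0.08, and -0.04 without 24 h replicate 2.

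Cell cycle genes stood high at both times. The mitotic genes TOP2A (349 to 446 TPM), PTTG1 (434 to 570.1 TPM), CCNB1 (203 to 261 TPM) and CDK1 (167 to 224 TPM) overlapped between 24 h and 48 h. MKI67, a marker of dividing cells, had 116, 139.7 and 76.8 TPM at 24 h and 146, 154 and 115 TPM at 48 h. The 40 genes of G2/M and mitosis were all at 1 TPM or more in every library, and 19 of them had changes above 0 and 21 below, with a median of -0.03. The 42 genes of S phase had a median of -0.10, with 16 above 0 and 26 below. Without overlap, 3 of them were higher at 48 h and 7 lower, against 4.87% and 7.65% of all tested genes, and at an unadjusted p under 0.05 it was 0 and 1. GINS4, a subunit of the replicative helicase, had 17.9, 17.3 and 26.6 TPM at 24 h and 6.88, 6.82 and 5.67 TPM at 48 h (-1.51 ± 0.58, adjusted p = 0.582). Of the CDK inhibitors, CDKN1A had 6.45 to 27.3 TPM at 24 h and 18.6 to 21.1 at 48 h, CDKN1B had 4.36 to 7.69 and 6.4 to 8.58, and CDKN2B was listed at 0. No gene of these lists was called.

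Between 24 h and 48 h, 0 of 14936 genes were called higher and 2 were called lower at a Benjamini-Hochberg adjusted p under 0.05 in limma, which is 0% and 0.0134% of the genes tested. At an unadjusted p under 0.05 there were 477 higher (3.19%) and 704 lower (4.71%), 1181 in all. In 727 genes (4.87%) all 48 h libraries lay above all 24 h libraries, and in 1142 (7.65%) all lay below. These percentages are the background for the counts of group members given below. The median change over all genes was -0.03.

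The size of change that could have gone unseen depended on the level. For genes of 100 TPM or more the median half-width of the 95% interval was 0.42 on the log2 scale, and for 905 of 1105 (81.9%) the whole interval lay between -1 and 1. Over all tested genes this held for 7086 (47.4%). Below 5 TPM the median half-width was 0.91. The coefficient of variation between libraries of the genes of 100 TPM or more had a median of 23.4% at 24 h, 9.38% at 24 h without replicate 2, and 10.0% at 48 h.

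**Figure D4:**
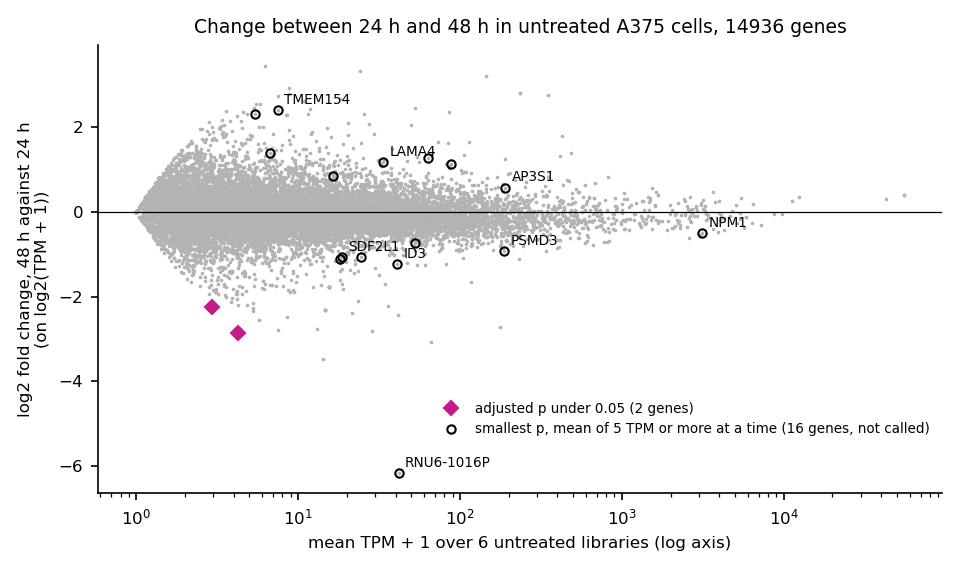
Each point is a tested gene, with mean TPM + 1 over the 6 untreated libraries on a log axis (horizontal) and the log2 fold change at 48 h against 24 h (vertical). The 2 called genes (diamonds) lie below 5 TPM, and 16 genes with the smallest p among those of a mean of at least 5 TPM at either time without overlap (circles) were not called.

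Both called transcripts were short and scarce, and both were listed at 0 at 48 h, so no fold is given. The first is a small nucleolar RNA gene that carries only the family name RF00568 in GENCODE 29, at chr1:156192063-156192203 on the minus strand, and overlaps no other annotated gene. Small nucleolar RNAs guide the chemical modification of other RNAs. It had 4.22, 7.13 and 8.05 TPM at 24 h and 0, 0 and 0 at 48 h (adjusted p = 7.9e-05), and it was at 0 in all 12 libraries that had received the compound. The second is CR545473.1, an unprocessed pseudogene at chr4:2607870-2608146 on the minus strand, within introns of RNF4 and FAM193A, which run on the other strand. It had 4.17, 4.69 and 2.65 TPM at 24 h and 0 at 48 h (adjusted p = 0.0083), and among treated libraries it was at 1.01 TPM in 0.63 µM 24 h replicate 1 and at 0 elsewhere. Spread was pooled over all groups of the fit, and for both transcripts most groups held only 0, which lowers the pooled spread. With only the untreated groups in the fit, neither was called (adjusted p = 0.195 for each in limma). Another short transcript, RNU6-1016P, narrowly missed the threshold (adjusted p = 0.054). It is a pseudogene of the spliceosomal U6 RNA at chr6:75644084-75644177, within an intron of SENP6 and on the same strand. It had 71.6, 36.2 and 136.8 TPM at 24 h and 0, 0 and 0 at 48 h, was above 0 in all 3 libraries of 0.32 µM at 24 h (29.98 to 152 TPM), and was at 35.6 TPM in 1 library of 0.63 µM at 48 h. SENP6 itself had 26.1 to 45.1 TPM at 24 h and 26.8 to 41.9 at 48 h.

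No reads were examined, and the annotation used for the counting was not given. The sequences below were looked up by the identifiers of the 2 calls and the nearest miss. They are the GENCODE 29 transcripts, 5′ to 3′, written as DNA.
RF00568: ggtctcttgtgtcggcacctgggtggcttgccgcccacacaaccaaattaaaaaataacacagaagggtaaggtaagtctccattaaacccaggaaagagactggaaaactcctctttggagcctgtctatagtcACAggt
CR545473.1: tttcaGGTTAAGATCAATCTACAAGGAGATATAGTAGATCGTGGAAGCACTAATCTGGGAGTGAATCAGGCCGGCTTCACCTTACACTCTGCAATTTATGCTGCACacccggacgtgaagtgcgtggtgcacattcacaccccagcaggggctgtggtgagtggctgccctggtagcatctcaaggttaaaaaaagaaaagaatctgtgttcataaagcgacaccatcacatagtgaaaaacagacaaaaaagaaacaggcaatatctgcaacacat
RNU6-1016P: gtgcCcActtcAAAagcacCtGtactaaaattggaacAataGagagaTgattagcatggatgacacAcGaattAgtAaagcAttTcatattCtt
In RF00568 the capitals mark ACA placed 3 bases before the end, searched on the transcript's strand, which 281 of 955 annotated small nucleolar RNA transcripts (29.4%) also have. In CR545473.1 they mark 101 of 277 bases, those lying in runs of at least 30 bases found unchanged in a transcript of ADD1, the gene of the membrane skeleton protein adducin. Reads from that stretch cannot be told apart between the pseudogene and ADD1, which had 83.6, 36.7 and 132 TPM at 24 h and 93.65, 107 and 85 TPM at 48 h. In RNU6-1016P they mark the bases that differ from RNU6-1, a functional U6 gene, in a global alignment, and 81.9% of its 94 bases match. RNU6-1 itself was listed at 19.7, 19.5 and 19.2 TPM at 24 h and 19.3, 9.83 and 0 TPM at 48 h (adjusted p = 0.601). TPM divides by length, so a few reads give an RNA as short as these a high value.

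Among genes with a symbol and a mean of at least 5 TPM at either time, those with the smallest p were picked from the genes without overlap between the times, and none of them passed the test. For the 8 genes with the smallest p and higher values at 48 h, adjusted p ran from 0.239 to 0.430. LAMA4, the alpha 4 chain of the basement membrane protein laminin, had 25.0, 14.4 and 19.3 TPM at 24 h and 55.8, 48.5 and 32.8 TPM at 48 h (log2 fold change 1.185 ± 0.29 SE, 0.99 without 24 h replicate 2). PCOLCE, which promotes the processing of procollagen, had 41.9, 18.7 and 55.1 TPM against 89.9, 93.5 and 78.1 TPM (1.28 ± 0.33, 0.84 without that library).

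TMEM154, a membrane protein gene, had 1.40, 0.54 and 2.0 TPM at 24 h and 9.20, 18.6 and 7.28 TPM at 48 h, the largest difference of the 8 (2.41 ± 0.48, adjusted p = 0.239). TMEM134 varied little within 48 h, with 12.2, 9.48 and 11.0 TPM against 20.3, 19.8 and 20.4 TPM (0.84 ± 0.21). AP3S1, a subunit of an adaptor complex for vesicle traffic, had 153, 134 and 168 TPM against 198, 236 and 246 TPM (0.58 ± 0.15). The others were the tubulin-trimming carboxypeptidase gene AGTPBP1 (1.40 ± 0.33), TBX2-AS1 (2.32 ± 0.57), which is antisense to TBX2 and may share its reads, and HYI (1.12 ± 0.29, 0.67 without 24 h replicate 2). Without that library the changes were 1.06 for AGTPBP1 and 1.97 for TBX2-AS1.

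Of the 8 genes with the smallest p and lower values at 48 h, RNU6-1016P was the first and the other 7 were protein-coding, with adjusted p from 0.239 to 0.247. SDF2L1, a component of a chaperone complex of the endoplasmic reticulum, had 22.8, 31.0 and 18.7 TPM at 24 h and 14.1, 9.51 and 9.47 TPM at 48 h (log2 fold change -1.06 ± 0.21). SCG5, a chaperone of prohormone processing, had 29.4, 39.2 and 27.3 TPM against 16.1, 16.8 and 11.7 TPM (-1.05 ± 0.21). ID3, an inhibitor of basic helix-loop-helix factors that responds to BMP signals, had 65.1, 62.0 and 42.5 TPM against 26.7, 23.0 and 20.02 TPM (-1.23 ± 0.26).

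Its relative ID1 also had no overlap, with 43.1, 45.5 and 49.0 TPM at 24 h and 28.8, 28.8 and 36.6 TPM at 48 h (-0.54 ± 0.33, adjusted p = 0.714). PSMD3, a subunit of the proteasome lid, had 224, 298 and 211 TPM against 138, 123 and 122 TPM (-0.92 ± 0.19). AAMP had 60.9, 65.8 and 67.8 TPM against 40.1, 34.4 and 41.3 TPM (-0.74 ± 0.16). PHB1, prohibitin of the inner mitochondrial membrane, had 22.8, 28.8 and 19.9 TPM against 11.3, 11.1 and 9.01 TPM (-1.10 ± 0.24). NPM1, a nucleolar chaperone of ribosome assembly, had 3391, 4173 and 3413 TPM against 2688, 2366 and 2710 TPM (-0.50 ± 0.11).

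The gene groups were compared by their medians, with -0.03 for all genes tested and 52.8% of them below 0. None of the 39 groups had a member that was called. Heat shock genes had the lowest median of the groups with at least 5 tested genes (-0.40, and -0.33 without 24 h replicate 2). They were mostly cytosolic chaperones and their partners, with the mitochondrial chaperone genes HSPD1 and HSPE1 and the factor gene HSF1. Of 18, 16 were below 0 (88.9%), 6 had an unadjusted p under 0.05 in that direction (4.71% of all genes did) and 5 were below without overlap (7.65% of all genes). The constitutive HSP70 gene HSPA8 had 897, 1292 and 829 TPM at 24 h and 692, 705 and 441 TPM at 48 h (-0.72 ± 0.26, adjusted p = 0.582). The HSP90 co-chaperone gene CHORDC1 had 81.0, 136 and 80.9 TPM against 58.3, 64.7 and 40.2 TPM (-0.84 ± 0.28). Its change was -0.59 without 24 h replicate 2. Inducible HSPA1A, whose near-identical copy HSPA1B can share its reads, had 60.5, 48.4 and 128 TPM against 41.1, 53.1 and 22.3 TPM, with overlap (-0.96 ± 0.52). HSP90AA1 shows how far 24 h replicate 2 reached: its TPM were 2334, 5469 and 2030 at 24 h and 2131, 2088 and 1636 at 48 h, and the change of -0.61 was -0.17 without it.

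Endoplasmic reticulum chaperones and the other genes of the unfolded protein response had a median of -0.25, the same without 24 h replicate 2. Of 23, 17 were below 0 and 5 were below without overlap (7.65% of all genes). SDF2L1 was among them. HSPA5, the main chaperone of that compartment, had 172, 240.0 and 137 TPM at 24 h and 131, 134 and 103 TPM at 48 h (-0.55 ± 0.17, adjusted p = 0.514, -0.33 without 24 h replicate 2). DNAJC3, its partner, had 17.1, 29.9 and 15.7 TPM against 14.2, 15.7 and 8.97 TPM (-0.63 ± 0.27, -0.35 without that library). ATF4 targets, the genes of amino acid supply under stress, had a median of -0.19, with 26 of 36 below 0. It was -0.29 without 24 h replicate 2 and -0.11 without 48 h replicate 3. The amino acid transporter SLC7A5 had 24.3 to 36.3 TPM at 24 h and 12.2 to 21.8 at 48 h (-0.74 ± 0.33), whereas PCK2 had 2.93 to 3.98 TPM at 24 h and 5.28 to 6.83 at 48 h (0.70 ± 0.28), neither of them called. DDIT3 (10.02 to 18.4 TPM) and TRIB3 (9.89 to 16.8 TPM) overlapped between the times. So did GDF15, a stress-induced cytokine gene (1.35 to 5.96 TPM), while the stress-induced factor gene ATF3 did not (10.8 to 12.2 TPM at 24 h, 5.82 to 7.35 at 48 h, -0.74 ± 0.38).

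The group of MYC and ribosome biogenesis genes held nucleolar genes and also MYC, ODC1, CAD and HSPD1, also in the heat shock group. Its median was -0.22, and -0.21 without 24 h replicate 2. It was -0.40 without 24 h replicate 3 and -0.14 without 48 h replicate 3. Of 30, 24 were below 0, and 23 were when 24 h replicate 2 was left out. With all libraries, 10 were lower at an unadjusted p under 0.05 (4.71% of all genes). Without overlap, 4 were lower (7.65% of all genes). These 4 were NPM1, NIP7, DDX21 and WDR43. NIP7, which acts in ribosome assembly, had 56.5, 48.0 and 55.7 TPM at 24 h and 34.3, 38.7 and 35.2 TPM at 48 h (-0.55 ± 0.16, adjusted p = 0.510). The RNA helicase gene DDX21 had 192, 352 and 173 TPM against 153, 152 and 127 TPM (-0.66 ± 0.20, -0.35 without 24 h replicate 2). NOP58, a core protein of box C/D ribonucleoproteins, had 277, 951 and 207 TPM against 228, 186 and 185 TPM, so that a single library made most of its -0.93, which was -0.27 without it. The ribosomal proteins themselves had a median of -0.03, with 36 of 79 above 0 and 43 below.

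**Figure D5:**
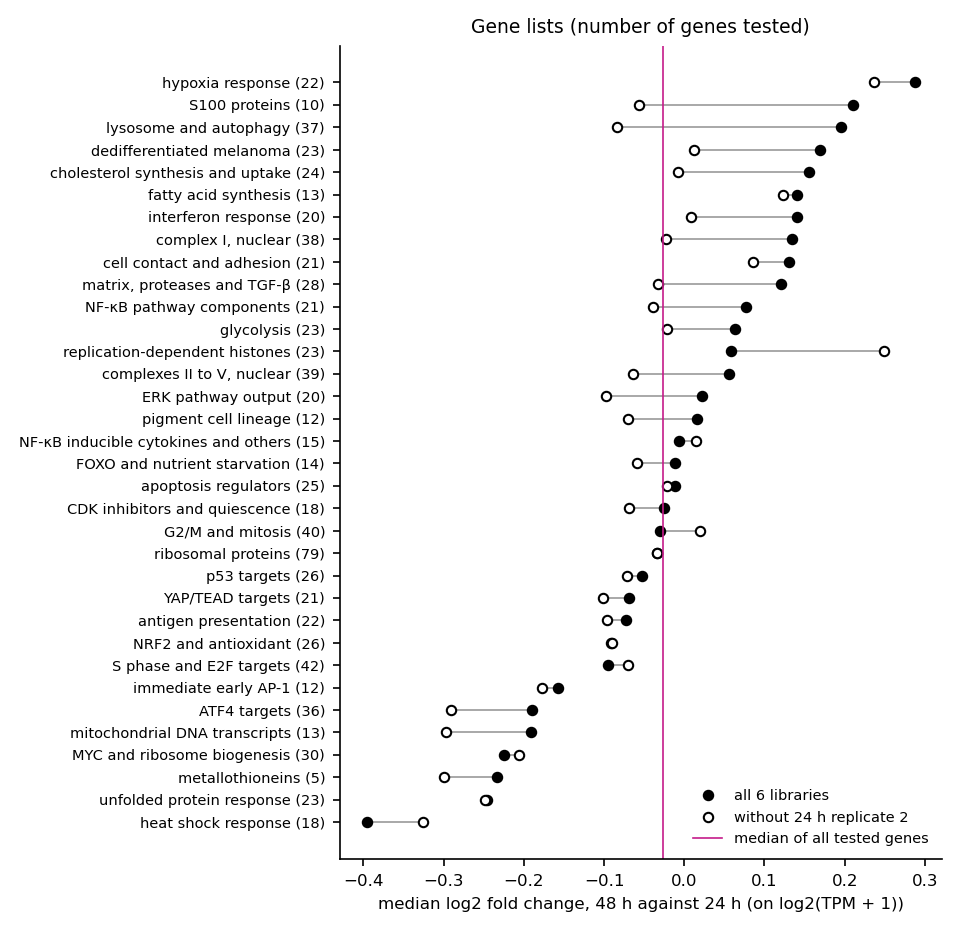
Median log2 fold change at 48 h against 24 h (horizontal axis) of each gene group with at least 5 tested genes (vertical axis, number in brackets), with all 6 libraries (filled) and without 24 h replicate 2 (open); the vertical line is the median of all tested genes. Heat shock genes lie lowest at -0.40 and -0.33, and the group of lysosome and autophagy genes moves from 0.20 to -0.08.

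Hypoxia genes had the highest median of the groups with at least 5 tested genes, 0.29, and this rested on 48 h replicate 3. The 24 genes summed to 220.0, 239 and 295 TPM at 24 h and to 231, 223 and 411 TPM at 48 h, and without that library the median was 0.04. NDRG1 had 15.8 to 21.8 TPM in 5 libraries and 57.2 TPM in 48 h replicate 3, and the carbonic anhydrase CA9 had 0 to 1.05 TPM in 5 libraries and 10.8 TPM in that library. VEGFA, the vascular growth factor, went the other way, with 13.5, 10.8 and 22.3 TPM at 24 h and 10.8, 9.37 and 5.57 TPM at 48 h (-0.77 ± 0.34, adjusted p = 0.619). TXNIP also had its highest value in 48 h replicate 3 (23.6 TPM, against 2.37 to 8.47 TPM in the other 5).

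Lipid supply genes had medians of 0.16 for cholesterol synthesis and uptake and 0.14 for fatty acid synthesis (-0.01 and 0.12 without 24 h replicate 2). The fatty acid median was 0.02 without 48 h replicate 2, and the cholesterol median was 0.32 without 24 h replicate 3 and 0.08 without 48 h replicate 3. The desaturase gene SCD had 14.2, 17.54 and 36.6 TPM at 24 h and 36.7, 44.5 and 41.4 TPM at 48 h (0.93 ± 0.25, adjusted p = 0.457). It was called when 24 h replicate 3 was left out (1.32, adjusted p = 0.019). FADS1, another desaturase, had 34.5, 27.3 and 54.1 TPM against 55.1, 61.9 and 63.2 TPM (0.68 ± 0.20). INSIG1, a sterol-sensing regulator of the pathway, had 5.88, 6.33 and 30.1 TPM against 28.8, 19.7 and 20.4 TPM (1.02 ± 0.45). Without 24 h replicate 2 the changes were 0.81 for SCD, 0.46 for FADS1 and 0.69 for INSIG1. In SCD, FADS1 and INSIG1 alike, 24 h replicate 3 was near the 48 h values while the other 24 h libraries were low. HMGCS1, an early enzyme of the cholesterol pathway, overlapped (4.0 to 6.82 and 5.18 to 6.22 TPM).

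The median of 38 nuclear genes of complex I was 0.13, and -0.02 without 24 h replicate 2. NDUFA13 had 172, 26.1 and 211 TPM at 24 h and 222, 271 and 225 TPM at 48 h (1.26 ± 0.49, 0.32 without that library). When 24 h replicate 2 was left out, the median of the 37 genes of lysosome and autophagy went from 0.20 to -0.08. That of the 10 tested S100 genes went from 0.21 to -0.06. Glycolysis genes had a median of 0.06 (-0.02 without 24 h replicate 2), and LDHA overlapped (104 to 235 and 124 to 174 TPM). The 13 mitochondrial transcripts had a median of -0.19, which was 0.03 without 24 h replicate 1, -0.30 without replicate 2 and -0.40 without replicate 3 of that time.

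Matrix genes included several that did not overlap between the times, and no contact or matrix gene was called. The YAP targets CCN1 (25.6 to 32.9 TPM at 24 h, 17.8 to 46.3 at 48 h) and CCN2 (11.2 to 16.6, 8.23 to 13.1) overlapped. The median of 21 YAP and TEAD targets was -0.07. It was -0.10 without 24 h replicate 2 and 0.08 without 48 h replicate 2. For 28 matrix and TGF-β genes the median was 0.12, and -0.03 without 24 h replicate 2. Without overlap, 3 of the 28 were higher at 48 h, LAMA4 among them, and 5 lower, among them ID1 and ID3. Of all tested genes, 4.87% and 7.65% were. The matrix glycoprotein gene THBS1 had 80.8, 77.4 and 62.6 TPM at 24 h and 53.7, 45.01 and 38.8 TPM at 48 h (-0.67 ± 0.25, adjusted p = 0.582). The gelatinase MMP2 had 26.0, 7.34 and 30.6 TPM against 51.1, 37.1 and 45.0 TPM (1.23 ± 0.40, 0.62 without 24 h replicate 2). At an unadjusted p under 0.05, 3 of 21 contact genes were higher at 48 h and 0 lower (3.19% and 4.71% of all genes). Their median was 0.13 (0.09 without 24 h replicate 2 and 0.02 without 48 h replicate 3). Without overlap, 1 contact gene was higher and 1 lower, against 4.87% and 7.65% of all tested genes. The integrin gene ITGA4 had 5.82 to 11.99 TPM and 10.5 to 17.3 TPM (0.65 ± 0.30). Of 26 antioxidant genes, 17 were below 0 (median -0.09). Without overlap, 6 were lower and 1 was higher (7.65% and 4.87% of all genes). At an unadjusted p under 0.05, 2 were lower (4.71% of all genes). GCLM, a subunit of the enzyme that starts glutathione synthesis, had 25.4, 23.8 and 16.9 TPM at 24 h and 15.98, 15.7 and 10.3 TPM at 48 h (-0.63 ± 0.28, adjusted p = 0.624). FTH1 and HMOX1 (0.97 to 4.63 TPM at 24 h, 1.20 to 2.31 at 48 h) overlapped between the times.

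The change over the same day was next compared with that of cells in 0.63 µM IMD-0354. In those, 89 genes were called higher (0.596%) and 839 lower (5.62%) at 48 h against 24 h, or 190 and 278 with median-of-ratios scaling and 117 and 374 when rescaled without the 4 chromosome 21 transcripts. The difference between the changes with and without the compound was called for 5 genes (0.0335%), of which 4 are described here. CAV1, which shapes membrane caveolae, had 242, 313 and 282 TPM at 24 h and 250, 231 and 249 TPM at 48 h without compound, and 195, 212 and 193 TPM against 60.9, 61.3 and 65.0 TPM with it (difference -1.48 ± 0.19 SE, adjusted p = 0.0047). The cell cycle gene CKS1B had 426 to 533 TPM without compound and went from 518 to 656 TPM to 208 to 284 TPM with it (-1.25 ± 0.20, adjusted p = 0.036). HSPA5 (untreated values above) went from 219.9 to 273 TPM at 24 h to 491 to 541 TPM at 48 h with it (1.62 ± 0.24, adjusted p = 0.022). Another was the small nucleolar RNA RF00568 (adjusted p = 0.0047), at 0 in every treated library, so that the treated groups held no spread. Over all tested genes the median change was -0.03 without compound and -0.19 with it. Between the times, 40 mitotic genes had a median of -0.03 without compound and -0.82 with it, of which 14 were called lower, and 42 genes of S phase had -0.10 and -0.996, with 18 called lower. The difference between these medians was not tested.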

How the data were processed

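RNA of 18 samples of A375 cells was measured, and 6 untreated samples are described here. Per the labels' protocols, RNA was purified on columns with DNase digestion, and QuantSeq 3' end libraries were prepared. Tools named, per the submitters' processing notes and without a role, are DESeq2, RSEM 1.3.1, STAR 2.7 and cutadapt 1.18. Genome build, annotation and strand setting were not given in the sources used here. What the authors deposited is 1 table of TPM for 60504 Ensembl identifiers. Each column summed to 999999.1 to 1000000.5, so the depth of each library and the precision it gives are unknown. Length division raises the TPM of very short RNAs from 3' end reads.

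Symbols were matched for 41209 identifiers and GENCODE 29 positions for 56996. From the deposited TPM, log2(TPM + 1) was computed for 14936 genes of at least 1 TPM in at least 3 of 18 libraries. With limma 3.58.1 in R 4.3.3, all 18 libraries were fitted together with a mean for each group (12 residual and 4.16 prior degrees of freedom, mean-variance trend), both directions were tested, and genes were called at an adjusted p (Benjamini-Hochberg) under 0.05. Changes are thus differences of log2(TPM + 1), which understates changes of low genes, and errors after ± are SD for levels and SE for log2 changes. Shares of TPM were compared by an exact two-sided permutation test. Transcript sequences and their GC content came from GENCODE 29, read with Python 3.11.15 and aligned with Biopython 1.88. The fit was tested on simulated normal values, with changes added only to genes of higher level than the called transcripts. No library deviating along GC content was simulated, so neither those calls nor that deviation was checked by it.

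Replicate numbers are shared between the times, but the deviations of same-numbered libraries from their group means correlated at 0.04, 0.02 and 0.12, so the numbers were not treated as pairs. The comparison itself and 39 gene lists (963 members, 845 tested) were chosen with earlier results of these data known. Named genes were up to 12 called genes with a symbol in each direction, filled to 8 by the smallest p among genes with a mean of at least 5 TPM at either time and without overlap, up to 4 called members or the 2 largest changes of each list, the 20 most abundant genes with a symbol and 10 most abundant other protein-coding genes, a preset set of pathway genes, and up to 5 genes in each direction of the difference test. RF00568 and CR545473.1, which have no symbol in the name table, and further list members were named after their values were seen. Some genes that meet the rule are not reported here. Alternatives were the pseudocount, the filter, scaling, the variance model, the groups in the fit, library weights, a replicate block and leaving out each library.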

Additional observations from a re-analysis of the deposited data

Results flagged for a closer look

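For 5 genes the change from 24 h to 48 h differed between untreated cells and cells in 0.63 µM IMD-0354, by a test of the difference itself in limma, and 4 of them are given here. On the log2 scale, treated minus untreated, it was 1.62 for HSPA5 (adjusted p = 0.022), -1.48 for CAV1 (0.0047), -1.25 for CKS1B (0.036) and 2.86 for the small nucleolar RNA RF00568. In 24 h replicate 2, HSPA5 had the highest untreated value, 240.0 TPM, and the untreated change of -0.55 was -0.33 without it. RF00568 was above 0 only in untreated cells at 24 h, so its value reflects 3 libraries of 4.22 to 8.05 TPM against 0 in the other groups. Those groups held no spread, which lowers the pooled spread of its test. No formal test for single outlying values was applied, since all groups hold 3 samples.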

How the results depend on the processing

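The count of genes called higher, 0 with all libraries, was 1 with a pseudocount of 5 TPM (GBP2) and 1 without the filter (RBBP4P1), and 0 to 1 when 1 untreated library was left out. The count called lower, 2, was 1 with a pseudocount of 0.1 TPM, 5 without the filter, 0 with a filter of 5 TPM, 0 when TPM were rescaled over protein-coding genes, 0 with only the untreated groups in the fit, 4 with library weights, and 1 to 2 when 1 library was left out. With both least correlated 24 h libraries left out, an alternative chosen after seeing the data, it was 0. The filter of 5 TPM and the rescaling over protein-coding genes leave both transcripts untested. With the replicate number as a block 0 were higher and 3 lower, RNU6-1016P being the addition. The numbers share no stated origin, and 24 h replicate 2 did not correlate best with its own number.

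The count of 5 for the difference between changes was 8 without the filter, 3 with median-of-ratios scaling, 3 with quantile normalization, 2 when rescaled over protein-coding genes, 2 without the mean-variance trend, 0 with only the 4 compared groups, 151 with library weights, 4 with the replicate block, 3 when rescaled without the 4 chromosome 21 transcripts (chosen after seeing the data), 3 without both least correlated libraries, and 2 to 18 when 1 library was left out. It was 10 without untreated 24 h replicate 2, 18 without replicate 3 and 13 without 0.63 µM 24 h replicate 3. The causes were not tested.

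RF00568 stayed called under all alternatives that tested it but 2: with only the untreated groups (adjusted p = 0.195) and with both least correlated libraries left out (0.0907). CR545473.1 lost its call under 8. The median of heat shock genes stayed between -0.48 and -0.26, and that of MYC and ribosome biogenesis genes between -0.40 and -0.13. Depth is unknown, so the part of read number in any value cannot be told.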
